A study of Rattus norvegicus with 6 samples.

Results

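The mitochondrial ribosome was followed through the genes whose symbols begin with Mrpl or Mrps and a digit, in hippocampal tissue of old rats that had been anesthetized with sevoflurane. A gene was taken where a probe set, the group of probes that measures one transcript, named it alone in the platform's annotation, and the probe set with the highest mean over the 6 arrays stood for a gene that had several. This gave 80 of the 22093 genes on the array, 49 named Mrpl for the large subunit and 31 named Mrps for the small subunit. Of the 80, 5 are pseudogenes and 2 are loci named as like another gene, so that 73 are the genes themselves. The sevoflurane group was 3 male Sprague-Dawley rats, 18 months old, that for 4 h breathed oxygen (100%) with sevoflurane added at 2.5%, and the control group was 3 such rats that breathed the oxygen alone for as long. The hippocampus was taken 3 h later, and RNA of each rat went on 1 Clariom D Pico array, whose deposited log2 expression values are given here. Both groups thus breathed oxygen in place of room air for those 4 h, and there was no group in room air. By the study's methods, the animals then went back to home cages before tissue was taken.

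Mitochondria keep a ribosome of their own, descended from a bacterial one, that translates the few messages of the mitochondrial genome into core subunits of the respiratory chain and of ATP synthase. Its RNAs come from the mitochondrial genome, while all of its proteins are encoded in the nucleus, made in the cytosol and imported. The small subunit binds the message and reads it, the large subunit joins the amino acids and passes the chain through an exit tunnel to the inner membrane, and many proteins of both subunits have no bacterial counterpart. Neurons depend heavily on respiration, and inherited defects of several of these proteins in humans affect the brain and the heart.

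The genes of the mitochondrial ribosome showed little difference between the sevoflurane and control groups. The median difference (sevoflurane minus control, log2) was 0.028 over the 80 genes, 0.036 over the 49 named Mrpl and 0.020 over the 31 named Mrps, against 0.024 over all 22093 genes. Single differences lay between -0.12 and 0.51. Higher means in the sevoflurane group were found for 52 of the 80 genes (65%) and lower means for 28, and 62.5% of all genes were higher. By limma's moderated test with Benjamini-Hochberg adjustment over all 68842 probe sets, no gene of the mitochondrial ribosome passed an adjusted p of 0.05, where the share of all probe sets that passed was also 0%. At an unadjusted p under 0.05, 1 of the 80 genes was higher and 0 were lower in the sevoflurane group. Of all genes 1.1% were higher and 0.222% lower at that level, and 1.61% of all probe sets passed it in either direction. The 3 sevoflurane arrays lay wholly above the 3 control arrays for 8 of the 80 genes (10%) and wholly below them for 1 (1.25%). For all genes these shares were 4.93% and 1.34%, and for the 14519 genes within the same range of level 5.91% and 1.55%. Related groups had shares like those of the 80 genes. They were 12.9% and 1.43% for 70 cytosolic ribosomal proteins, and 10% and 0% for 60 respiratory chain subunits.

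**Figure D1:**
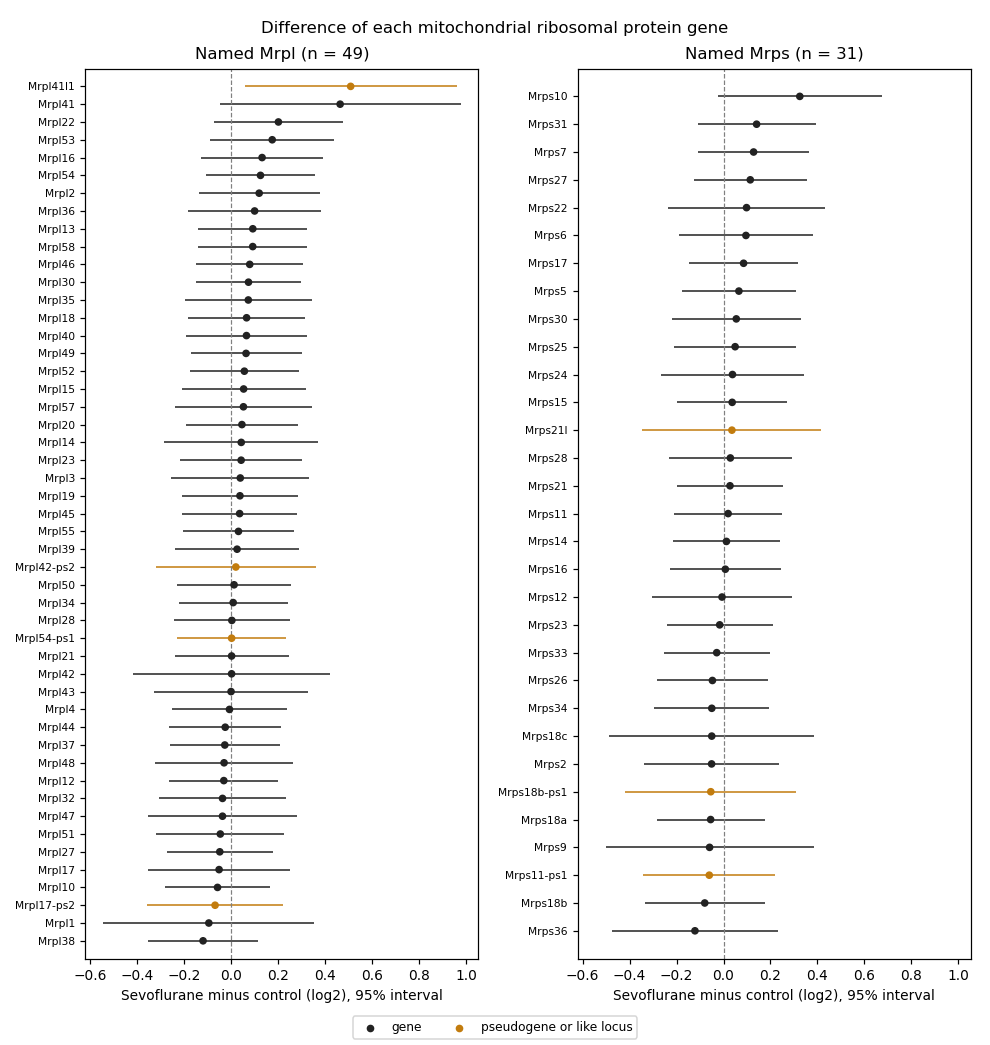
Difference between sevoflurane and control arrays (log2, x axis) for each gene named Mrpl (left, 49) and Mrps (right, 31), with 95% intervals from limma (3 arrays a group) and pseudogenes or like loci in orange. All but 1 of the 80 intervals cross 0, and the exception is Mrpl41l1.

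The precision of these values was limited by the number of arrays and, from gene to gene, by the spread within groups. The 95% interval of a difference reached a median of 0.257 to each side on the log2 scale, between 0.224 and 0.513 for single genes. For 77 of the 80 genes the whole interval lay within a fold change of 1.5 in either direction. The 3 others, Mrpl41l1, Mrpl41 and Mrps10, had the largest differences of all. The pooled standard deviation within groups ran from 0.023 for Mrpl10 to 0.359 for Mrpl41, with a median of 0.10.

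One array of the sevoflurane group, replicate 1, was less like the rest than any other. Its log2 values had a standard deviation of 1.85, against 1.93 to 2.03 on the other 5 arrays, and a mean correlation with the others of 0.986 across probe sets, against 0.991 to 0.993. Background control probe sets had medians of 3.96, 3.58 and 3.52 on the sevoflurane arrays and 3.46, 3.71 and 3.68 on the control arrays. The 10 markers of hippocampal neurons were above this on every array, among them Neurod6 with 7.61 to 8.07 in the sevoflurane group and 7.74 to 8.29 in the control group. Markers of thalamus and habenula, which border the hippocampus, had higher means in the sevoflurane group for 8 of 8 genes, 5 of them at an unadjusted limma p under 0.05. Their median deviation from the gene means was 0.288, 0.634 and -0.049 on the 3 sevoflurane arrays and -0.380, -0.238 and -0.225 on the control arrays. Other markers also differed at an unadjusted limma p under 0.05. The endothelial genes Itm2a and Slco1c1 were lower in the sevoflurane group, with differences of -0.80 and -0.72, and the oligodendrocyte gene Mag was higher by 0.385. The endothelial markers Cldn5, Pecam1 and Flt1 differed by only 0.13, 0.12 and -0.01, and the median over all 5 endothelial markers was -0.01. Of 4 measured oligodendrocyte markers 3 had higher means, and Cnp differed by -0.03. Red cell markers had lower means for 5 of 5 genes, 2 of them at an unadjusted limma p under 0.05. The part of these cell types in the values below was not tested. In bulk tissue, a change in the number of cells of a type and a change in RNA per cell cannot be told apart.

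The largest difference belonged to Mrpl41l1, a locus annotated as protein-coding and named as like Mrpl41. Its expression was 7.03, 7.20 and 7.82 in the sevoflurane group and 6.94, 6.73 and 6.86 in the control group. All 3 sevoflurane arrays were above all 3 control arrays, and replicate 3 stood far above the others. The difference was 0.51 (SE 0.20, 95% interval 0.06 to 0.96), a fold change of 1.42, with an unadjusted p of 0.0315 and an adjusted p of 1 from limma. The exact permutation test gave 0.1, the smallest p that 3 arrays against 3 allow. Without sevoflurane replicate 3 the difference was 0.27 and limma's unadjusted p was 0.0742. Leaving out control replicate 2 or control replicate 3 also took the p past 0.05, to 0.0895 and 0.0653.

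Mrpl41 (mL41), a protein that mitochondrial but not bacterial ribosomes carry and that in human cells also binds BCL2, came next in size. It had 7.36, 7.73 and 8.35 in the sevoflurane group against 7.41, 7.28 and 7.36 in the control group, so the lowest sevoflurane array lay inside the control range. The mean was 7.82 ± 0.50 in the sevoflurane group and 7.35 ± 0.07 in the control group (SD, n = 3 each). The difference of 0.46 (95% interval -0.05 to 0.98) had an unadjusted limma p of 0.0709 and an exact permutation p of 0.3. The size turned on single arrays: it was 0.19 (unadjusted limma p of 0.226) without sevoflurane replicate 3 and 0.69 (unadjusted limma p of 0.00445) without sevoflurane replicate 1. Both Mrpl41 and Mrpl41l1 were thus highest on sevoflurane replicate 3, well above the next array. The microglial markers, 5 of 5 with higher means in the sevoflurane group and 0 of 5 at an unadjusted p under 0.05, had a median deviation of 0.484 on that array and between -0.083 and 0.012 on the other 5, although the marker Tmem119 was not highest there (6.97, against 7.09 on sevoflurane replicate 1). The astrocyte markers, also 5 of 5 with higher means and 0 of 5 at that level, had median deviations of -0.015, 0.065 and 0.221 on the sevoflurane arrays and -0.080, -0.137 and 0.020 on the control arrays. The part of either cell type in the values of Mrpl41 and Mrpl41l1 was not tested.

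The start regions of Mrpl41 and Mrpl41l1 are shown because both loci were highest on the same array and carry related names. Each is the stretch from 250 bases before to 50 bases after the annotated start, from RefSeq on the rat build GRCr8, and the capitals mark the longest run of letters that both hold on the same strand.
Mrpl41, chr3:28179706-28180005 (minus strand): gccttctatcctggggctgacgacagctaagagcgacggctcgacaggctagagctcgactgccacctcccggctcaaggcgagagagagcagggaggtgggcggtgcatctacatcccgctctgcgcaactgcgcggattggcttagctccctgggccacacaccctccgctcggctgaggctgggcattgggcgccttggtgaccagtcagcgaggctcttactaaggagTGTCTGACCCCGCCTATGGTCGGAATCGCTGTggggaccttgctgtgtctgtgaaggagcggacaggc
Mrpl41l1, chr8:94074612-94074911 (plus strand): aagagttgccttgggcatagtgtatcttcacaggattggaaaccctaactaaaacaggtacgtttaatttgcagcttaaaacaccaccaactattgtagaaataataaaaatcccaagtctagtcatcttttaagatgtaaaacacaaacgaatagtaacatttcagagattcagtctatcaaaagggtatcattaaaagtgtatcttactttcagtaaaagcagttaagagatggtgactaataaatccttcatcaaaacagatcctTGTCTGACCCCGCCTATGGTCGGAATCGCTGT
The shared run has 32 bases. In Mrpl41 it spans the start itself, positions -18 to 14 counted from the first transcribed base, while in Mrpl41l1 it begins at position 19 and runs to the end of the window at 50. The longest run shared between opposite strands had 8 bases. Upstream of the run both sequences differ, and Mrpl41l1 holds long stretches rich in A and T there. The probes of the array were not analysed here, so how far a probe set of either locus also reads RNA of the other cannot be told apart from a difference of both.

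**Figure D2:**
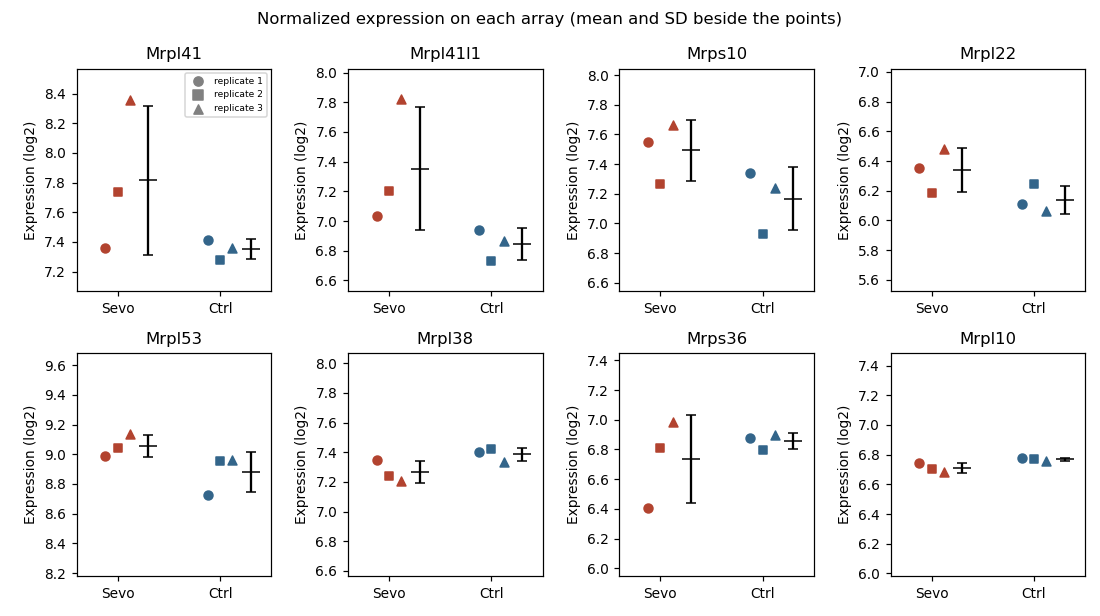
Deposited expression (log2, y axis, each panel spanning 1.5 units) of 8 genes on each array, sevoflurane left and control right, with replicate number as marker shape and mean with SD beside the points (n = 3). In Mrpl41 and Mrpl41l1 sevoflurane replicate 3 lies far above all other arrays, at 8.35 and 7.82, while in Mrps36 replicate 1 lies lowest at 6.41.

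Within the large subunit, proteins that approach the peptidyl transferase center, where the peptide bond is made, differed little. Mrpl16 (uL16) had 7.02, 7.19 and 7.27 in the sevoflurane group and 7.04, 6.96 and 7.10 in the control group, a difference of 0.13 with an unadjusted limma p of 0.278. Mrpl2 (uL2) had 6.65, 6.38 and 6.46 in the sevoflurane group and 6.32, 6.39 and 6.42 in the control group, and its difference of 0.12 came mainly from replicate 1. Differences were 0.04 for Mrpl3 (uL3), -0.01 for Mrpl4 (uL4) and -0.05 for Mrpl27 (bL27). The median over these 5 genes was 0.039. All 5 had overlapping groups.

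Around the exit tunnel, Mrpl22 (uL22), which lines its wall, had 6.35, 6.18 and 6.48 in the sevoflurane group and 6.11, 6.25 and 6.06 in the control group. The groups overlapped, and the difference was 0.20 (95% interval -0.07 to 0.48, unadjusted limma p of 0.132). Mrpl23 (uL23), Mrpl47 (uL29) and Mrpl17 (bL17), which ring the opening, had differences of 0.04, -0.04 and -0.05. Mrpl45 (mL45), which holds the ribosome to the inner membrane, had a difference of 0.04. Mrpl17 and its pseudogene Mrpl17-ps2 were both lowest on sevoflurane replicate 1, at 7.88 and 6.43. On the other 5 arrays Mrpl17 lay between 8.09 and 8.27 and Mrpl17-ps2 between 6.60 and 6.81. Whether probe sets of a gene and of its pseudogene read each other's RNA was not tested, so these cannot be taken as independent observations. Over the 6 arrays the Pearson correlation was 0.949 for this pair and 0.98 for Mrpl41 with Mrpl41l1. Other genes and their copies were less alike, with 0.523 for Mrpl42, 0.133 for Mrps21, 0.03 for Mrpl54, -0.518 for Mrps18b and -0.586 for Mrps11.

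The stalk that recruits translation factors was represented by Mrpl10 (uL10), which anchors it, and Mrpl12 (bL12), its mobile part. Mrpl10 was the only gene of the 80 whose sevoflurane arrays all lay below the control arrays, with 6.75, 6.70 and 6.69 in the sevoflurane group against 6.78, 6.77 and 6.76 in the control group. The step was small, a difference of -0.06 (95% interval -0.28 to 0.17) with an unadjusted limma p of 0.567. Mrpl12 had 6.51, 6.45 and 6.45 in the sevoflurane group and 6.44, 6.56 and 6.52 in the control group, and the groups overlapped. Mrpl53 (mL53), a mitochondrial addition near the stalk, had 8.99, 9.04 and 9.13 in the sevoflurane group against 8.72, 8.95 and 8.96 in the control group. Its arrays did not overlap, and the difference of 0.17 (95% interval -0.09 to 0.44) had an unadjusted limma p of 0.166.

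Another 5 large-subunit genes also had every sevoflurane array above every control array. Mrpl54 (mL54), found only in mitochondrial ribosomes, had 8.09, 7.96 and 8.02 in the sevoflurane group and 7.86, 7.93 and 7.90 in the control group. Mrpl58 (mL62, also called Ict1), a peptidyl-tRNA hydrolase that frees stalled ribosomes, had 7.75, 7.66 and 7.66 in the sevoflurane group and 7.54, 7.64 and 7.61 in the control group. Mrpl46 (mL46), part of the central protuberance, had 7.86, 7.87 and 7.89 in the sevoflurane group and 7.74, 7.82 and 7.82 in the control group. These steps were narrow in all 3 genes, with differences of 0.12, 0.09 and 0.08. Mrpl13 (uL13) and Mrpl30 (uL30), both of bacterial ancestry, differed by 0.09 and 0.07. The unadjusted limma p of these 5 genes lay between 0.253 and 0.477, and the exact permutation p was 0.1 for each, the smallest possible.

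At the other end of the large subunit stood Mrpl38 (mL38), a protein of the central protuberance, with 7.35, 7.24 and 7.21 in the sevoflurane group and 7.40, 7.42 and 7.33 in the control group. The groups overlapped only through sevoflurane replicate 1, and the difference was -0.12 (95% interval -0.36 to 0.12, unadjusted limma p of 0.276). Mrpl1 (uL1), which forms the arm that releases spent tRNA, had 6.63, 7.40 and 7.20 in the sevoflurane group and 7.34, 7.15 and 7.02 in the control group. Replicate 1 was the lowest of the 6 arrays and replicate 2 the highest, so the sevoflurane group spanned the control group. This probe set is marked as unmapped by the array, and the mapped probe set of Mrpl1 gave a difference of -0.04 in place of -0.10. Mrpl36 (bL36), the other gene with a second probe set, gave 0.10 and 0.08. The 26 large-subunit genes outside the rule for description, Mrpl36 included, lay between -0.05 and 0.10, with a smallest unadjusted limma p of 0.444.

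In the small subunit the largest difference belonged to Mrps10 (uS10), a protein of the head. It had 7.55, 7.27 and 7.66 in the sevoflurane group and 7.34, 6.93 and 7.24 in the control group. Replicate 2 was the lowest array of each group, and the groups overlapped through it, 7.27 in the sevoflurane group against 7.34 in control replicate 1. The mean was 7.49 ± 0.20 in the sevoflurane group and 7.17 ± 0.22 in the control group (SD, n = 3 each). The difference of 0.32 (95% interval -0.03 to 0.67) had an unadjusted limma p of 0.0648 and an exact permutation p of 0.2. With single arrays left out it lay between 0.20 (unadjusted limma p of 0.238, without control replicate 2) and 0.44 (unadjusted limma p of 0.0286, without sevoflurane replicate 2). Leaving out control replicate 1 gave an unadjusted limma p of 0.0461, and leaving out sevoflurane replicate 3 one of 0.186.

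Mrps7 (uS7), which lies in the head close to the exit site of tRNA, was the 1 small-subunit gene whose groups did not overlap. Its values were 8.19, 8.23 and 8.22 in the sevoflurane group and 8.01, 8.18 and 8.05 in the control group, and the difference was 0.13 (unadjusted limma p of 0.250). Mrps31 (mS31), a mitochondrial protein of the head, had 6.29, 6.40 and 6.51 in the sevoflurane group and 6.33, 6.21 and 6.24 in the control group, a difference of 0.14 with overlap. Mrps27 (mS27), a pentatricopeptide repeat protein, had 7.29, 7.39 and 7.48 in the sevoflurane group and 7.25, 7.26 and 7.32 in the control group. Its difference was 0.11, again with overlap.

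Of the proteins along the path of the message, Mrps2 (uS2) had a difference of -0.05, Mrps5 (uS5) of 0.07 and Mrps24 (uS3) of 0.04, and Mrps12 (uS12), which checks the pairing of codon and anticodon, of -0.01. Mrps12 had 6.74, 6.46 and 6.37 in the sevoflurane group and 6.41, 6.59 and 6.60 in the control group, so the sevoflurane arrays lay on both sides of the control arrays. Mrps22 (mS22), which in humans is mutated in a mitochondrial disease of infancy, had 8.19, 8.64 and 8.66 in the sevoflurane group and 8.48, 8.40 and 8.31 in the control group. Sevoflurane replicate 1 was below all control arrays and the other 2 were above them, and the difference was 0.10 (unadjusted limma p of 0.521). It was 0.25 (unadjusted limma p of 0.0347) without that array, but 0.03 without sevoflurane replicate 2 and 0.02 without sevoflurane replicate 3 (unadjusted limma p of 0.874 and 0.916). Mrps6 (bS6) differed by 0.10. Mrps9 (uS9) and Mrps18b (mS40) differed by -0.06 and -0.08.

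The subunit named in a symbol is not always the place of the protein. Mrps30 (mL65) and Mrps18a (mL66) sit in the large subunit, and they differed by 0.05 and -0.05. Mrps36 is a component of the 2-oxoglutarate dehydrogenase complex, under the name Kgd4, and had the lowest difference of all 80, -0.12 (95% interval -0.48 to 0.23). It had 6.41, 6.81 and 6.99 in the sevoflurane group and 6.88, 6.80 and 6.90 in the control group, the low mean coming from replicate 1 alone. Placed by structure, 47 genes of the large subunit had a median difference of 0.037 and 25 of the small subunit one of 0.028. The 14 small-subunit genes outside the rule for description lay between -0.05 and 0.09, with a smallest unadjusted limma p of 0.42.

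Ancestry, taken from the protein names, did not set the genes far apart. In the large subunit, the median difference was 0.038 over 26 genes with a bacterial type of name (u or b). It was 0.036 over 21 with a mitochondrial type of name (m), Mrps18a (mL66) among them. In the small subunit it was 0.028 over 16 genes of the bacterial type, 12 of them higher in the sevoflurane group. It was -0.016 over 9 of the mitochondrial type, Mrps18b (mS40) among them, with 4 higher. Mrps18c (bS18) counted as bacterial, so the names do not settle descent for each gene. The 7 pseudogenes and like loci had a median of 0.002. Mrps11-ps1 and Mrps18b-ps1 were among the lower differences, at -0.06 and -0.05. Without the copies the medians were 0.037 over 45 large-subunit genes and 0.024 over 28 small-subunit genes, with 0 genes at an unadjusted limma p under 0.05.

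As a set, the genes stood at different levels on the sevoflurane arrays. Sevoflurane replicate 3 was the highest of the 6 arrays for 35 of the 80 genes (43.8%), and sevoflurane replicate 1 was the lowest for 27 (33.8%) and the highest for 16. Among the 14519 genes within the same range of level, 28.5% were highest on sevoflurane replicate 3, 32.9% were lowest on sevoflurane replicate 1 and 34.1% were highest there. Median deviations from the gene means were -0.061, 0.019 and 0.070 on the 3 sevoflurane arrays and -0.023, -0.009 and -0.003 on the control arrays for the large subunit. For the small subunit they were -0.019, 0.030 and 0.043 on the sevoflurane arrays and 0.008, 0 and -0.012 on the control arrays. In both subunits the sevoflurane arrays thus reached both below and above the controls.

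**Figure D3:**
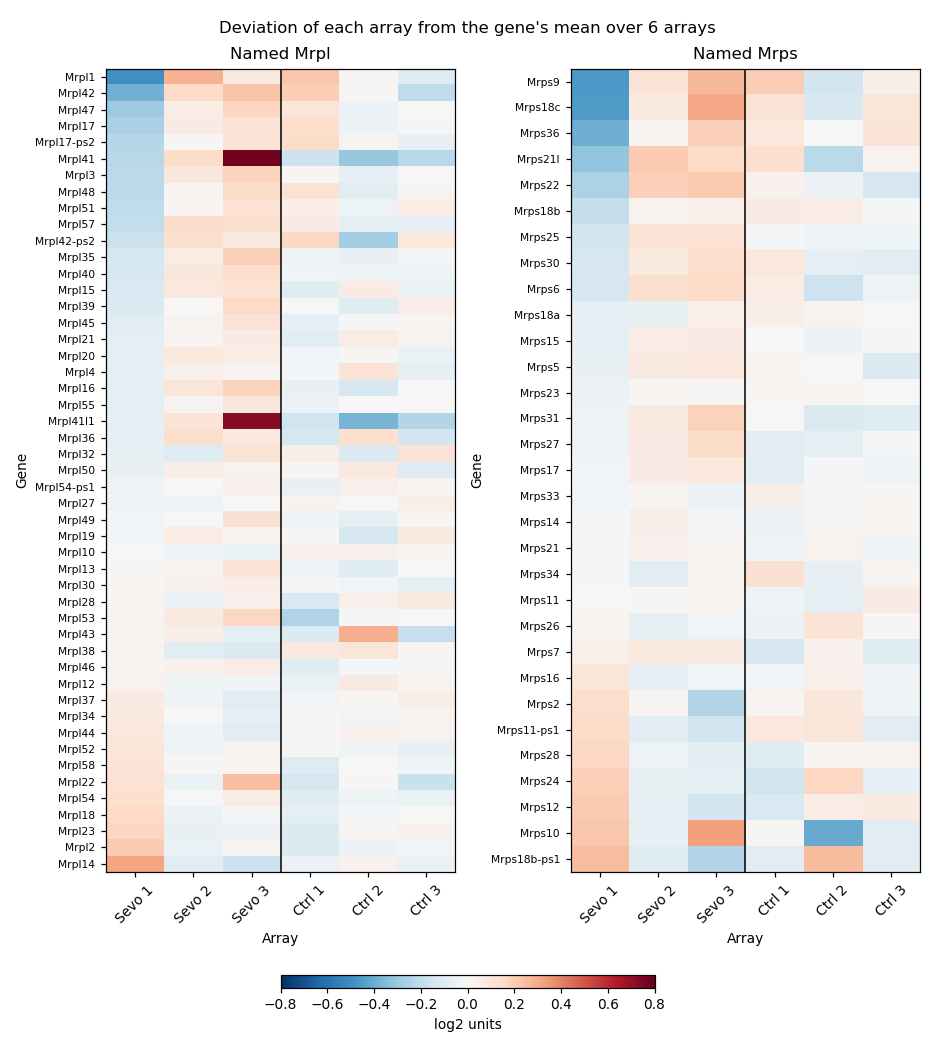
Deviation of each array from the gene's mean over the 6 arrays (color, log2 units) for genes named Mrpl (left) and Mrps (right), sevoflurane arrays left of the line and control arrays right, ordered by the value of sevoflurane replicate 1 against the others. Blue rows at the top have low values on sevoflurane replicate 1 (Mrpl1, Mrps9, Mrps18c), red rows at the bottom have high ones (Mrpl14, Mrps10), and the darkest cells are Mrpl41 and Mrpl41l1 on sevoflurane replicate 3.

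Replicate 1 of the sevoflurane group did not move all genes alike. Against the mean of the other 5 arrays, Mrpl1 was lower by 0.59, Mrps9 by 0.55, Mrps18c (bS18) by 0.55, Mrps36 by 0.47 and Mrpl42 (mL42) by 0.46. On the same array Mrpl14 (uL14), which helps to join both subunits, was higher by 0.38, Mrps18b-ps1 by 0.30, Mrps10 by 0.27 and Mrps12 by 0.25. Without this array the median difference was 0.068 for the large subunit and 0.042 for the small subunit, and the groups did not overlap for 22 of 49 and 11 of 31 genes in all, where 27.6% of all genes did not. With all 6 arrays these counts were 8 and 1, where 4.93% of all genes lay wholly above and 1.34% wholly below the control arrays.

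Genes that work beside the mitochondrial ribosome gave the scale for these values. The median difference was 0.070 over 70 proteins of the cytosolic ribosome, 62 of them higher in the sevoflurane group and 1 at an unadjusted limma p under 0.05. It was 0.025 over 60 nuclear-encoded subunits of the respiratory chain (with Atp5d of ATP synthase among them), 38 of them higher and 0 at that level. As in the mitochondrial ribosome, replicate 1 was the lowest and replicate 3 the highest sevoflurane array in both. The cytosolic ribosome had median deviations of -0.087, 0.020 and 0.186 on the sevoflurane arrays and -0.048, -0.088 and 0.007 on the control arrays, and 62 of its 70 genes were highest on sevoflurane replicate 3. The respiratory chain had -0.080, 0.049 and 0.099 on the sevoflurane arrays and -0.023, -0.019 and -0.003 on the control arrays.

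**Figure D4:**
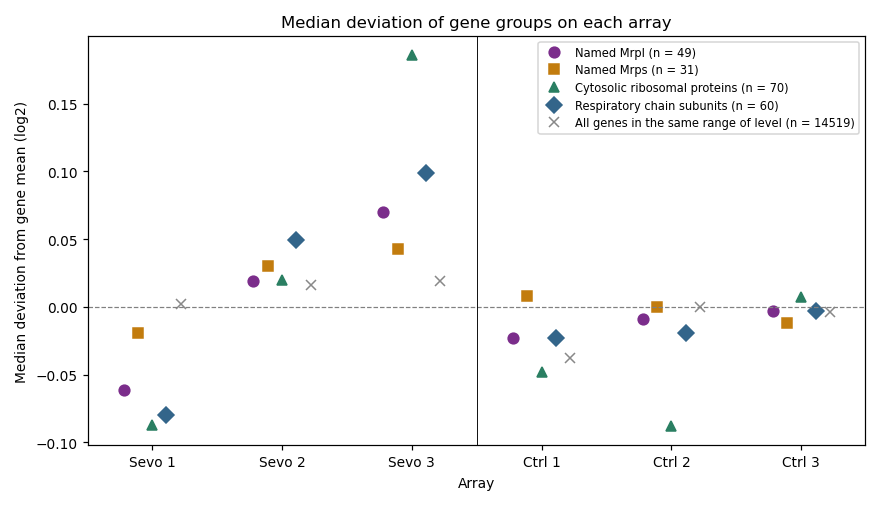
Median deviation from the gene means (log2, y axis) on each array (x axis, sevoflurane left and control right) for both subunits of the mitochondrial ribosome, cytosolic ribosomal proteins, respiratory chain subunits and all genes in the same range of level. Sevoflurane replicate 1 is the lowest and replicate 3 the highest sevoflurane array in the first 4 groups, the widest span being -0.087 to 0.186 in the cytosolic ribosomal proteins.

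Proteins of the mitochondrial ribosome that carry other names behaved like the rest. Over Dap3, Ptcd3, Chchd1, Aurkaip1 and Gadd45gip1 the median difference was 0.033, none had an unadjusted limma p under 0.05, and Chchd1 had the smallest, 0.697. Among 26 measured genes for assembly of the mitochondrial ribosome and modification of its RNA the median was 0.037, with 21 higher and 0 at that level, and Trub2, a pseudouridine synthase, had a difference of 0.14. Among 19 measured mitochondrial aminoacyl-tRNA synthetases and amidotransferase subunits, which charge the tRNAs, it was 0.037, with 15 higher and 0 at that level. Mars2, which charges the methionine tRNA, had the smallest p there, a difference of 0.21 with an unadjusted limma p of 0.105.

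At an unadjusted limma p under 0.05, 1.1% of all genes were higher in the sevoflurane group and 0.222% lower. Of 14 factors that start, extend, end and insert the products of mitochondrial translation, 1 was higher at that level and 0 were lower. This was Mtif3, the initiation factor that keeps the subunits apart until the message is bound, with 6.81, 6.45 and 6.72 in the sevoflurane group and 6.23, 6.35 and 6.44 in the control group. All sevoflurane arrays lay above all control arrays, replicate 2 of the sevoflurane group only just. The difference was 0.32 (SE 0.13), with an unadjusted p of 0.0376 and an adjusted p of 1 from limma, and an exact permutation p of 0.1. The median over the 14 factors was -0.017. Over 21 genes for transcription and processing of mitochondrial RNA it was 0.015, with Trmt10c, a subunit of mitochondrial RNase P, at 0.13. Over 9 nuclear regulators of mitochondrial genes it was -0.012, with the nuclear receptor Esrra at 0.06. Neither list held a gene at an unadjusted limma p under 0.05.

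The products of the mitochondrial ribosome were represented by 3 genes of the mitochondrial genome, subunits of cytochrome c oxidase. COX2 had 11.72, 12.09 and 12.28 in the sevoflurane group and 12.49, 12.13 and 12.25 in the control group, a difference of -0.26 with an unadjusted limma p of 0.158. COX1 and COX3 differed by -0.09 and -0.13. All 3 were lowest on sevoflurane replicate 1 and highest on control replicate 1, and the groups overlapped in each.

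The profile of the mitochondrial ribosome over the 6 arrays, the mean of its 80 centered genes, was -0.049, 0.029 and 0.075 on the sevoflurane arrays and -0.010, -0.021 and -0.024 on the control arrays. The 5 genes most like it among the other 22013 were Mbnl1, Slc2a3, Hmgb2l1, Kmt5b and Msmo1, with Pearson correlations of 0.995 to 0.998 over the 6 arrays. They are given as a description without a test, since they are the best of many. Mbnl1, a splicing regulator, had 8.24, 8.43 and 8.56 in the sevoflurane group and 8.34, 8.29 and 8.29 in the control group. Like the profile it was lowest on sevoflurane replicate 1 and highest on replicate 3.

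Promoter letters were then compared. RefSeq promoters on GRCr8, again 250 bases before to 50 after the start, were matched for 60 of the 80 genes and searched on both strands for 6 motifs, whose matches may overlap each other. The letters CCGGAAG, a site type of ETS factors such as GABPA (NRF2), were found in 20 of the 60 (33.3%), against 9.22% of all 27457 promoters and 12.4% of those of protein-coding genes on the array. The letters GCGCANGCG, from the site type of NRF1, were found in 11 (18.3%), against 6.26% and 9.12%. The letters AAGATGGCG, from the site type of YY1 at start sites, were found in 9 (15%), against 1.93% and 2.53%. At least 1 of these 3 was present in 32 of the 60 promoters and more than 1 kind in 8. NRF1, GABPA and YY1 are factors known to act on nuclear genes of mitochondria.

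The next sequences show such matches in genes described above, with the matched letters in capitals, as stretches of the same promoters.
Mrps10, chr9:21122404-21122468 (minus strand): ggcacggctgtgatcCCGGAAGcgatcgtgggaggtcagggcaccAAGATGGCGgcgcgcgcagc
Mrps27, chr2:32474143-32474253 (plus strand): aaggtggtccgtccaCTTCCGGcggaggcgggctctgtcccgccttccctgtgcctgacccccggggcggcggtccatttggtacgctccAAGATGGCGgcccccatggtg
Mrpl17, chr1:169575693-169575769 (minus strand): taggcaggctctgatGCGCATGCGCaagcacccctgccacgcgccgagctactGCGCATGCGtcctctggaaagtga
Mrps10 and Mrps27 hold a match of the ETS and one of the YY1 motif, in Mrps27 the ETS match on the opposite strand, and Mrpl17 holds 2 stretches that match the NRF1 motif. More general promoter letters were found at other shares. GGGCGG, the box of SP1, was in 29 of the 60 (48.3%, against 34.9% of all promoters and 47.9% of coding ones), CCAAT in 27 (45%, against 37.7% and 37.9%), and TATAAA in 7 (11.7%, against 14.3% and 11.9%). The median difference between sevoflurane and control was 0.044 over the genes with the ETS letters and 0.022 over those without, 0.054 and 0.031 for the YY1 letters, and 0.008 and 0.037 for the NRF1 letters. A match of letters does not show that a factor was bound in these animals.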

How the data were processed

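RNA from the hippocampus of each of 6 rats, 3 given sevoflurane and 3 controls, was hybridized to 1 Clariom D Pico array in 1 color, and the submitters' labels gave the groups. The authors deposited normalized log2 expression values, 1 for each probe set and array. Affymetrix Expression Console 1.4.1, RMA and MAS5 appear in the submitters' processing notes, and no role is stated for any of them. Normalization across arrays can hide a shift that most transcripts share. Of 70580 probe sets in the file, 1738 controls were left out and 68842 were tested, dim ones included. Gene symbols are those of the platform annotation, which gave 1 symbol to 23446 probe sets, several to 505 and none to 44891. The 80 genes had 82 probe sets, and another 4 that name such a gene beside a further gene were not used. Mrpl33 and Mrps35 were left out in this way. Mrpl9, Mrpl11 and Mrpl24 were also not among the 80, so the set does not cover the whole ribosome.

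The test was limma's moderated test (version 3.58.1, R 4.3.3), two-sided, with Benjamini-Hochberg adjustment over all 68842 probe sets. Single genes were also given a two-sided exact permutation test, which cannot go below 0.1. The limma step was first tried on simulated data. The rats were separate animals in the study's methods, and no pair of arrays held identical values. The genes and lists were chosen with earlier results of these data known, so no list was tested, and the motif letters were settled after a first count. Genes were described by a rule: an unadjusted p under 0.05, no overlap between groups, the 6 largest differences each way per subunit, a known functional site, Mrps30, Mrps18a and Mrps36, the smallest p of each other list, and the 5 genes most like the mean profile. The rule took 40 of the 80 genes. Mrpl36, Mrpl14, Mrpl42, Mrps18c and further genes of other lists were named outside it, with their values seen. Results were recomputed with the methods' one-way ANOVA, a trended robust prior, array weights, quantile normalization, arrays centered on their medians, dim probe sets filtered out, the replicate block, the mean of probe sets, subunits by place, each array left out and, chosen after seeing the data, copies left out. Software for tables and figures was Python 3.11.15 with pandas 2.3.3 and matplotlib 3.10.9. Protein sequences and a genome were not used here.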

Additional observations from a re-analysis of the deposited data

How the results depend on the processing

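The median differences of 0.036 for the large and 0.02 for the small subunit moved by less than the spread between arrays under every alternative, and lay between 0.007 and 0.068 and between 0 and 0.042 with single arrays left out. Counts moved more. For the large subunit, 1 gene at an unadjusted p under 0.05 became 3 with the methods' one-way ANOVA (Mrpl54, Mrpl30 and Mrpl10), 4 with array weights (Mrpl41l1, Mrpl41, Mrpl36 and Mrpl57), 0 with centring on the median, 0 with copies left out, an alternative chosen after seeing the data, and 0 to 2 with single arrays left out. It was 0 without sevoflurane replicate 3, control replicate 2 or control replicate 3, and 2 without sevoflurane replicate 1. For the small subunit, 0 became 2 with array weights (Mrps31 and Mrps22) and 0 to 1 with single arrays left out. The array weights ran from 0.174 for sevoflurane replicate 1 to 3.25 for sevoflurane replicate 2. In the main fit 1.1% of all genes were higher and 0.222% lower at that level. Shares of all genes under the alternatives are not given here, so whether these counts moved with the whole array was not tested. Non-overlapping genes, 8 in the large and 1 in the small subunit, were 4 and 0 with centring. Before centring, 4.93% of all genes lay wholly above and 1.34% wholly below the control arrays. Their shares after centring are not given here, so whether the fall was particular to these genes was not tested. With single arrays left out the non-overlapping genes were 9 to 22 in the large and 2 to 11 in the small subunit. The share of all genes without overlap was then 27.6% without sevoflurane replicate 1 and 10.3% to 13% without any other array. Comparing fewer arrays can only raise such counts, but each of these runs left out 1 array. The cause of the higher share without sevoflurane replicate 1 and of the other shifts was not tested. Of 520 alternative values of the 40 genes taken by rule, 503 kept their side of the threshold and stayed within the spread between arrays, 5 lost the threshold, 10 gained it and 2 moved beyond that spread, while the 1 called value, that of Mrpl41l1, kept its sign. Values not called changed sign 36 times, 9 with array weights, 9 without sevoflurane replicate 1 and 7 without sevoflurane replicate 3.

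The replicate block gave 1 gene in the large subunit and 0 in the small, as without it. Same-numbered arrays deviated with correlations of -0.585, -0.288 and 0.026, and none matched its own number best, so the numbers were not taken to pair the rats. With 3 arrays a group, the median half-width of the 95% interval was 0.257 on the log2 scale. Differences under about that size could not be resolved. Larger ones were not always resolved, as the intervals of Mrpl41 (difference of 0.46) and Mrps10 (difference of 0.32) also crossed 0.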
